A study of Mus musculus with 12 samples.

Results

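Adamts1, Plaur and Plau are 3 genes of extracellular proteolysis, taken here by symbol from the 31053 genes listed for sorted mouse brain myeloid cells. They were chosen by their measured levels in these preparations and in Fos-positive microglia, so those values are a description and carry no test. Live CD45+/CD11b+ cells were sorted from whole brains of 12 male C57BL/6J mice at postnatal day 90, and each animal gave 1 single-cell RNA-seq library. The brains were dissociated by cold Dounce homogenization without (DNC-NONE) or with (DNC-INHIB) transcription and translation inhibitors, or by enzymatic digestion at warm temperature without (ENZ-NONE) or with (ENZ-INHIB) the same inhibitors, n = 3 per group. The inhibitors were actinomycin D, triptolide and anisomycin, added during several steps of the preparation.

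Plau encodes urokinase (uPA), a serine protease that cuts the zymogen plasminogen into plasmin, and Plaur encodes its receptor uPAR, which holds urokinase at the cell surface through a lipid anchor. Plasmin degrades fibrin and matrix proteins and activates other proteases. Adamts1 encodes a secreted metalloproteinase that cuts proteoglycans such as versican and aggrecan, and microglia, the resident macrophages of the brain, use proteases of these kinds at the cell surface and in the surrounding matrix.

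The genes lie on different chromosomes of GRCm38, and no other annotated gene overlaps them. Adamts1 (ENSMUSG00000022893) spans bases 85793827 to 85803113 of chromosome 16 on the minus strand with 9 exons. Plaur (ENSMUSG00000046223) spans 24462484 to 24475968 of chromosome 7 on the plus strand with 7 exons. Plau (ENSMUSG00000021822) spans 20836660 to 20843385 of chromosome 14 on the plus strand with 11 exons.

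The promoters of 2 of the 3 genes were read from RefSeq (GRCm38.p6) and are shown because the levels of Adamts1 followed those of AP-1 genes, while those of Plaur did not. The 250 bases before each gene start are written 5′ to 3′ on the gene's strand, Adamts1 from chr16:85803114-85803363 (minus) and Plaur from chr7:24462233-24462482 (plus). Capitals mark matches to the AP-1 motif TGANTCA, the short cAMP response core TGACG, the TATA box TATAAA and the GC box GGGCGG, each searched on both strands.
Adamts1: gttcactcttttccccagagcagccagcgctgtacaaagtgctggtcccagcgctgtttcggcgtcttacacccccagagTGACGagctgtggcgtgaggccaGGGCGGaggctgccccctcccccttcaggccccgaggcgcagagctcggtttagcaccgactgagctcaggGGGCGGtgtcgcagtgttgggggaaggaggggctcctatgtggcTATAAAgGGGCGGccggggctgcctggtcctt
Plaur: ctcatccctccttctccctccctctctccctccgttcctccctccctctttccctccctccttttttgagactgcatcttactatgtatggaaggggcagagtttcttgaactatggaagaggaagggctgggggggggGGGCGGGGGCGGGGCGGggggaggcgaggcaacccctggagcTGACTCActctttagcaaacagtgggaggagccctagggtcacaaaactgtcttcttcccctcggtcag
The Adamts1 window held 1 TGACG at bases -170 to -166, 1 TATA box at -32 to -27 and 3 GC boxes, and no AP-1 match. The Plaur window held 1 AP-1 site, TGACTCA at -69 to -63, which reads as a match on both strands, and 3 GC boxes, the last 2 of which overlap by 1 base. Among 32851 promoters of the same length, 6.75% held the AP-1 motif, 17.8% TGACG, 12.4% the TATA box and 32.7% a GC box. The windows were 65.6% (Adamts1) and 59.6% (Plaur) G and C, against a median of 52.4%. The full cAMP response element TGACGTCA, the NF-kB motif and the serum response CArG box, present in 1.55%, 3.90% and 1.47% of promoters, had no match in either window.

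Of 28426 deposited cells, 18826 were kept, with 853 to 2185 cells and 1059783 to 3233159 unique molecular identifiers (UMIs, 1 per captured RNA molecule) per library. By marker genes, 17960 kept cells were microglia-like, 312 border macrophage-like and 123 monocyte-like, and the 9 microglia markers summed to 33215 to 39042 CPM in every library, where CPM is the UMIs of a gene per 1000000 UMIs of the library. DNC-NONE replicate 1 stood apart from the other 2 DNC-NONE libraries in Fos (37.2 against 0.944 and 2.78 CPM). The Adamts1 mean level, mean share and fitted differences of DNC-NONE are given with and without it. Ratios and excesses of ENZ-NONE over the other 9 libraries include it. DNC-NONE replicates 2 and 3 held the most neutrophil RNA, 1655 and 4053 CPM over 7 markers. Among the kept cells, 236 of 18590 distinct barcodes occurred in more than 1 library.

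Adamts1 was highest after enzymatic digestion without inhibitors. ENZ-NONE held 84.2% of its 709 UMIs, and its mean level there was 16.1 times that of the other 9 libraries. ENZ-NONE replicates 4, 5 and 6 held 81, 74 and 442 UMIs, which is 37.2, 48.2 and 162 CPM. DNC-NONE replicates 1, 2 and 3 held 72, 1 and 8 UMIs, or 28.8, 0.944 and 4.44 CPM. DNC-INHIB replicates 4, 5 and 6 held 2, 7 and 10 UMIs (0.951, 2.66 and 3.09 CPM), and ENZ-INHIB replicates 1, 2 and 3 held 4, 5 and 3 (2.15, 1.88 and 1.17 CPM). Every ENZ-NONE library therefore lay above every other library in level, by 1.29-fold between the lowest of them and DNC-NONE replicate 1. The other 8 libraries lay between 0.944 and 4.44 CPM, with a mean of 2.16 CPM, against 5.12 CPM for the 9 libraries with DNC-NONE replicate 1.

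**Figure D1:**
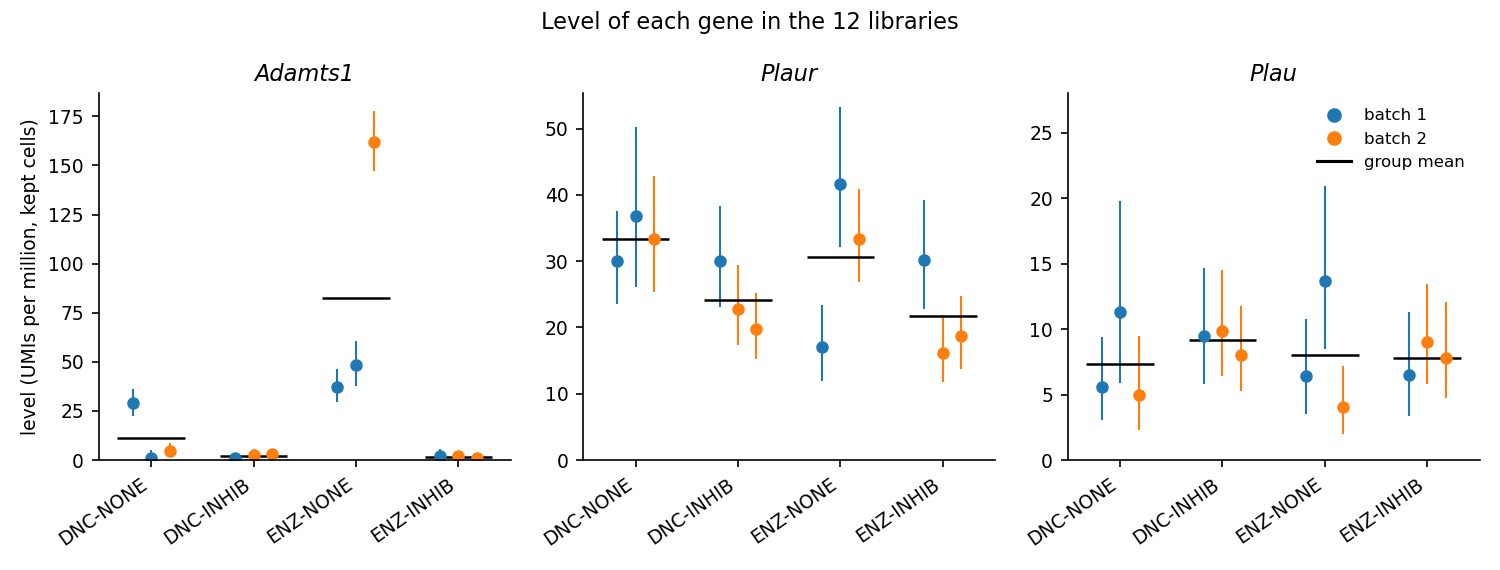
Level of Adamts1, Plaur and Plau in CPM (vertical axes from 0, a different scale in each panel) for the 3 libraries of each preparation. Points are libraries with exact 95% Poisson intervals (counting error only), colours are the 2 batches and horizontal lines are group means. The 3 ENZ-NONE points of Adamts1 lie above all others, with replicate 6 at 162, while ENZ-NONE overlaps every other group for Plaur and Plau.

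Adamts1 averaged 82.4 CPM ± 69.1 (SD, n = 3) in ENZ-NONE and 11.4 ± 15.2 in DNC-NONE. With inhibitors it averaged 2.23 ± 1.13 after Dounce and 1.74 ± 0.509 after digestion. A single library carried much of each uninhibited group, as ENZ-NONE replicate 6 held 74.0% of the ENZ-NONE UMIs and DNC-NONE replicate 1 held 88.9% of those of DNC-NONE. Without ENZ-NONE replicate 6, the excess of ENZ-NONE over the other 9 libraries was 37.6 CPM instead of 77.3. Without DNC-NONE replicate 1, the DNC-NONE mean was 2.69 CPM. The excess was 34.5 CPM within batch 1, which holds ENZ-NONE replicates 4 and 5, and 159 CPM within batch 2, which holds replicate 6.

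In the fit across all 9882 genes tested, the log2 fold changes of Adamts1 were 2.64 (SE 0.818) for ENZ-NONE against DNC-NONE, 5.196 (SE 1.04) against DNC-INHIB and 5.66 (SE 1.14) against ENZ-INHIB. These comparisons share the ENZ-NONE libraries. The difference was 2.56 (SE 1.43) between DNC-NONE and DNC-INHIB and -0.46 (SE 2.19) between ENZ-INHIB and DNC-INHIB. The last value rests on 12 and 19 UMIs. Without DNC-NONE replicate 1, the difference between DNC-NONE and DNC-INHIB was 0.39 and that between ENZ-NONE and DNC-NONE was 4.81. Without ENZ-NONE replicate 6, ENZ-NONE differed from DNC-NONE by 1.60, from DNC-INHIB by 4.14 and from ENZ-INHIB by 4.60. In sums over a library, fewer cells of a type and less RNA per cell cannot be told apart. With microglia-like cells only, ENZ-NONE differed from DNC-NONE by 2.67, from DNC-INHIB by 5.26 and from ENZ-INHIB by 5.67.

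The share of Adamts1-positive cells was compared at 1 depth, after each kept cell had been thinned at random to 1000 UMIs. In ENZ-NONE, 2.04%, 2.59% and 6.46% of cells were positive. In DNC-NONE the shares were 2.12%, 0.117% and 0.287%. In the 6 inhibited libraries they ran from 0.063% to 0.299%. Unlike the level, the share overlapped between groups, because DNC-NONE replicate 1 (2.12%) lay above ENZ-NONE replicate 4 (2.04%). The mean share was 3.70% ± 2.41 (SD, n = 3) in ENZ-NONE and 0.841% ± 1.11 in DNC-NONE (0.202% without replicate 1). It was 0.203% ± 0.073 for DNC-INHIB and 0.194% ± 0.120 for ENZ-INHIB. Before thinning, the ENZ-NONE shares were 2.29%, 2.86% and 7.84%.

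The number of Adamts1 UMIs per positive cell also differed. Of 205 positive ENZ-NONE cells, 81 (39.5%) held a single UMI and 35 held at least 5, with a maximum of 11. Replicate 6 gave 28 of those 35 cells, and without it 33 of 68 positive cells held a single UMI and 7 held at least 5. In DNC-NONE, 40 of 56 positive cells held 1 UMI and 2 held at least 5, and without replicate 1 the counts were 7 of 8 and 0. All 12 positive ENZ-INHIB cells and 17 of 18 positive DNC-INHIB cells held 1 UMI.

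Markers of blood vessel cells, which lack CD45 and CD11b and which the sort should remove, were read in the same libraries. The 6 endothelial markers summed to 20.9 to 28.7 CPM in ENZ-NONE and to 20.01 to 35.9 CPM in the other 9 libraries. From 2 to 5 of the 6 were at 0 in each library, and in DNC-INHIB replicate 4 Pecam1 alone made up the 25.2 CPM. The sums therefore do not show whether endothelial RNA differed between preparations. The defining endothelial gene Cldn5 was at 0 UMIs in all but 1 library, DNC-NONE replicate 2. The 5 pericyte markers summed to at most 1.89 CPM in any library, and all 5 were at 0 in ENZ-NONE replicates 5 and 6. Endothelial marker sums and Adamts1 levels were not tested against each other.

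Plaur was present in all 12 libraries at 16.2 to 41.7 CPM, with 700 UMIs in 565 cells. Its level was 30.01, 36.8 and 33.3 CPM in DNC-NONE (75, 39 and 60 UMIs) and 29.97, 22.8 and 19.8 CPM in DNC-INHIB (63, 60 and 64 UMIs). In ENZ-NONE it was 17.0, 41.7 and 33.3 CPM (37, 64 and 91 UMIs), and in ENZ-INHIB 30.2, 16.2 and 18.7 CPM (56, 43 and 48 UMIs). ENZ-NONE held the second lowest and the highest of the 12 levels, so its range covered nearly all other libraries. Group means were 33.4 ± 3.39 CPM in DNC-NONE, 30.7 ± 12.6 CPM in ENZ-NONE, 24.2 ± 5.22 CPM in DNC-INHIB and 21.7 ± 7.44 CPM in ENZ-INHIB (SD, n = 3 each). Each step in this order was smaller than the larger SD of its 2 groups. The DNC-NONE mean, however, lay above those of DNC-INHIB and of ENZ-INHIB by more than the larger SD of each pair. DNC-NONE and DNC-INHIB did not overlap, though narrowly (lowest 30.01 against highest 29.97 CPM). The exact Poisson intervals of these libraries did overlap. They were 23.6 to 37.6 CPM in DNC-NONE replicate 1 and 23.0 to 38.3 CPM in DNC-INHIB replicate 4. In the fit, DNC-NONE differed from DNC-INHIB by 0.46 on the log2 scale (SE 0.279). How many of all genes separate these groups was not computed, so the lack of overlap stands without a background.

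The largest Plaur difference between preparations in the fit was -0.63 on the log2 scale (SE 0.289), for ENZ-INHIB against DNC-NONE. ENZ-NONE differed from DNC-NONE by -0.08 (SE 0.278), from DNC-INHIB by 0.38 (SE 0.274) and from ENZ-INHIB by 0.55 (SE 0.284). Shares of positive cells after thinning were 2.70% ± 0.613 after Dounce alone, 2.01% ± 0.473 after Dounce with inhibitors, 2.64% ± 0.936 after digestion alone and 1.86% ± 0.623 after digestion with inhibitors. Most positive cells held 1 UMI, from 80.3% in DNC-NONE to 91.2% in ENZ-INHIB.

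Plau had the fewest UMIs of the 3 genes, 209 in 201 cells. DNC-NONE libraries held 14, 12 and 9 UMIs, DNC-INHIB 20, 26 and 26, ENZ-NONE 14, 21 and 11, and ENZ-INHIB 12, 24 and 20. The mean levels were 7.31 ± 3.49, 9.15 ± 0.974, 8.04 ± 5.02 and 7.77 ± 1.29 CPM in that order (SD, n = 3 each). ENZ-NONE again spanned the extremes, with the lowest level of all libraries in replicate 6 (4.03 CPM) and the highest in replicate 5 (13.7 CPM). The fitted log2 differences ran from -0.44 (SE 0.363, DNC-NONE against DNC-INHIB) to 0.25 (SE 0.377, ENZ-INHIB against DNC-NONE). Shares after thinning were 0.589% ± 0.328, 0.896% ± 0.227, 0.693% ± 0.579 and 0.733% ± 0.128. Each Plau value rests on 9 to 26 UMIs per library.

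Across the 12 libraries, the level of Adamts1 ran with immediate early genes, which cells switch on within minutes of a stimulus. Among 7885 genes, the 5 most like Adamts1 by Pearson correlation of log2(CPM + 1) were the AP-1 subunits Fos (0.974), Jun (0.970) and Junb (0.963), the growth regulator Btg2 (0.967) and the transcription factor Egr1 (0.959). These correlations describe 12 libraries that fall into a high and a low cluster, and they carry no test. Plaur and Plau had other neighbours. The closest genes were Gm10269 (0.882), Capn15 (0.881), Kri1 (0.869), Nip7 (0.841) and Dym (0.841) for Plaur, and Zbtb45 (0.883), Hddc2 (0.873), Snhg9 (0.849), Gm37494 (0.846) and Hmgn1 (0.845) for Plau. Among themselves the 3 genes gave 0.263 (Adamts1 and Plaur), -0.413 (Adamts1 and Plau) and 0.056 (Plaur and Plau).

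**Figure D2:**
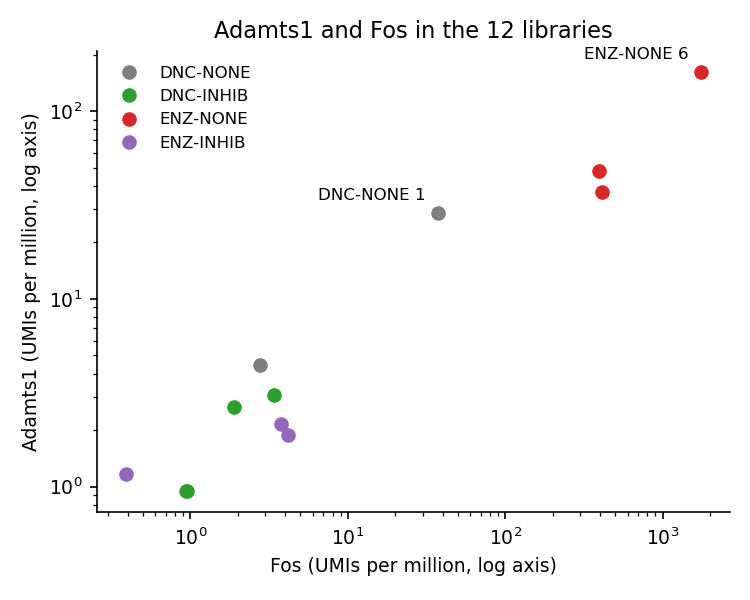
Adamts1 against Fos in CPM, both on log axes, 1 point per library and coloured by preparation. The ENZ-NONE libraries lie at the upper right, DNC-NONE replicate 1 lies alone at 37.2 Fos and 28.8 Adamts1, and the points of DNC-NONE replicate 2 and DNC-INHIB replicate 4 coincide at the lower left.

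DNC-NONE replicate 1 had an Adamts1 level near those of ENZ-NONE with far less Fos. Its Fos level was 37.2 CPM, against 411, 392 and 1753 CPM in ENZ-NONE replicates 4, 5 and 6. Its Adamts1 level was 28.8 CPM, against 37.2, 48.2 and 162. The 8 remaining libraries lay between 0.390 and 4.15 CPM for Fos.

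Within ENZ-NONE, microglia-like cells with Fos were more often positive for Adamts1 than cells without it. Fos-positive cells, those with at least 1 Fos UMI after thinning, made up 12.4%, 13.8% and 37.2% of microglia-like cells in replicates 4, 5 and 6. Adamts1 was detected in 5.29%, 10.1% and 10.1% of them and in 1.5%, 1.41% and 4.90% of Fos-negative cells. The difference had the same direction in 3 of 3 libraries, 3.79, 8.73 and 5.16 percentage points, with a mean of 5.89 ± 2.55 (SD). Over the 3 libraries together, 87 of 953 Fos-positive cells (9.13%) and 84 of 3297 Fos-negative cells (2.55%) were Adamts1-positive, and replicate 6 gave 616 of the 953. Median depth before thinning was 1448 and 1344 UMIs.

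The Adamts1 share was higher in cells with 2 to 4 Fos UMIs than in cells with 0 in each ENZ-NONE library. It was 7.78% against 1.5% in replicate 4, 14.8% against 1.41% in replicate 5 and 11.2% against 4.90% in replicate 6. There was no steady rise over all steps, as the share at 1 Fos UMI was 1.39%, 5.80% and 5.36% and that at 5 or more was 7.41%, 11.1% and 12.5%. Conversely, 50.9% of the 171 Adamts1-positive cells were Fos-positive, so the remaining 84 had no Fos UMI at this depth. Fos-negative cells of ENZ-NONE replicates 4 and 5 were Adamts1-positive at 1.5% and 1.41%, against 0.065% to 2.07% in Fos-negative cells of the other 9 libraries, where the highest value was that of DNC-NONE replicate 1.

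**Figure D3:**
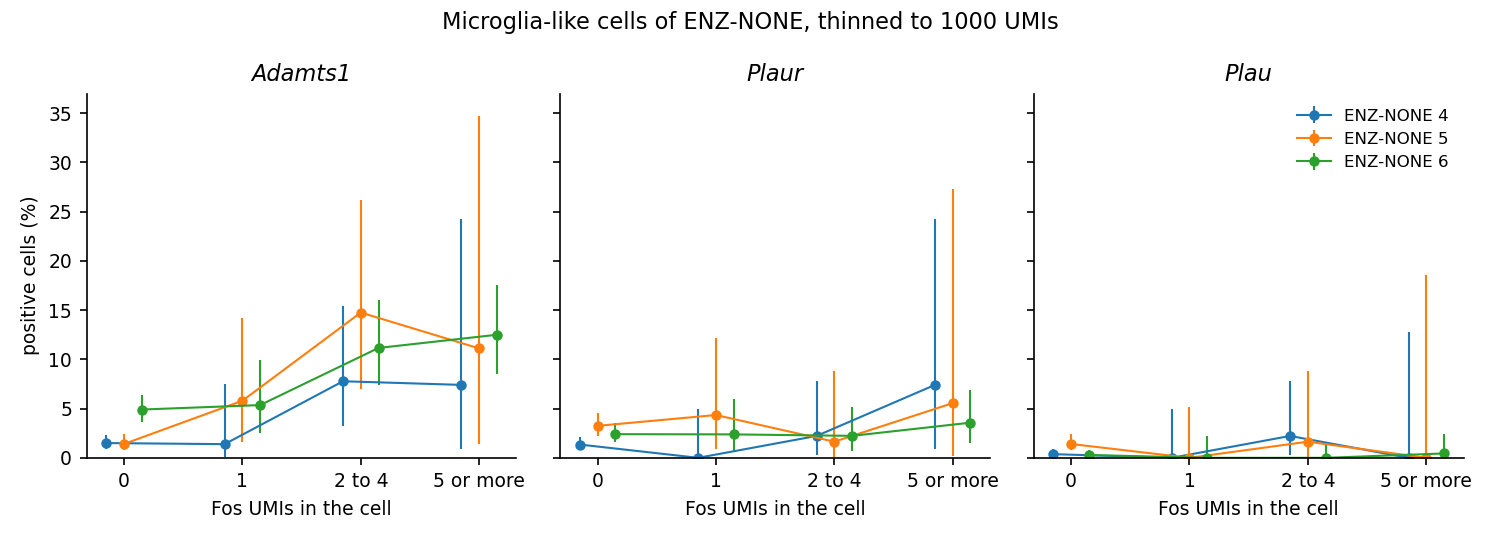
Share of microglia-like cells positive for each gene (vertical axis, percent) by the number of Fos UMIs in the same cell (horizontal axis), after thinning to 1000 UMIs, in the 3 ENZ-NONE libraries. Points carry exact 95% binomial intervals (counting error only), and cells with 5 or more Fos UMIs number 27 and 18 in replicates 4 and 5. Adamts1 is higher at 2 to 4 than at 0 Fos UMIs in each library, and Plaur and Plau show no such step in common.

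Plaur and Plau had smaller differences by Fos status. Plaur was detected in 2.12%, 3.38% and 2.76% of Fos-positive and in 1.35%, 3.25% and 2.40% of Fos-negative cells of replicates 4, 5 and 6, a mean difference of 0.418 ± 0.322 percentage points. The pooled Plaur share was 2.21% at 0 Fos UMIs, 2.27% at 1, 2.13% at 2 to 4 and 4.09% at 5 or more. For Plau the mean difference was -0.058 ± 0.710 percentage points, and its sign differed between libraries.

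In DNC-NONE replicate 1, only 48 of 1736 microglia-like cells (2.76%) were Fos-positive. Adamts1 was detected in 2 of these 48 cells and in 35 of the 1688 Fos-negative cells (2.07%). Of its 37 Adamts1-positive cells, 5.41% thus had Fos, against 2.71% of its Adamts1-negative cells. In ENZ-NONE replicates 4, 5 and 6 the Fos share of Adamts1-positive cells was 33.3%, 53.6% and 54.9%, against 12.0%, 12.7% and 35.9% of Adamts1-negative cells. The other 8 libraries had 0 to 2 Fos-positive cells each, too few for a share.

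Other stress-induced genes followed Adamts1 in the same cells of ENZ-NONE. All 17 immediate early, heat shock and chemokine genes examined were detected more often in the 171 Adamts1-positive than in the 4079 negative microglia-like cells, and 15, 15 and 17 of 17 were in replicates 4, 5 and 6 taken singly. Jun was found in 88.3% against 58.3%, Ier2 in 29.2% against 8.63%, Dusp1, a MAP kinase phosphatase, in 35.7% against 17.3%, and the chemokine gene Ccl4 in 29.8% against 11.9%. Hspa1a, which encodes a heat shock protein, differed less, 38.0% against 31.2%. For Plaur 11 and for Plau 9 of the 17 genes were higher in positive cells. In DNC-NONE replicate 1 the count for Adamts1 was 10 of 17. The library was not held fixed in the pooled shares, and replicate 6 gave 113 of the 171 positive cells. Fos, by whose status the 3 genes were chosen, is among the 17. How many of all genes were higher in positive cells was not computed, so these counts stand without a background.

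Each of the 3 genes was detected in few cells, and they seldom shared a cell. Adamts1 and Plaur shared 17 of all kept cells, 5.84% of the Adamts1-positive and 3.01% of the Plaur-positive cells, where 3.00% of all cells held Plaur. Plaur and Plau, receptor and ligand, shared 9 cells, 1.59% of the Plaur-positive and 4.48% of the Plau-positive cells. Adamts1 and Plau shared 4, or 1.37% of the Adamts1-positive cells, where 1.07% of all cells held Plau. In ENZ-NONE, Plaur was found in 2.34% of Adamts1-positive and in 2.33% of Adamts1-negative microglia-like cells.

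The cells fell into 12 clusters of more than 1 cell, built without the 3 genes and without the other genes of the lists used here. The clusters were made from these same cells, so differences between them carry no test. Over all libraries together, Adamts1 was highest in a microglia-like cluster of 1017 cells led by Fos, Dusp1 and Socs3. There, 336 UMIs (47.4% of all) gave 215 CPM and 9.83% of cells were positive before thinning. ENZ-NONE replicate 6 gave 719 of the cluster's cells and 318 of those UMIs, and DNC-NONE replicate 1 gave 163 cells. Without ENZ-NONE replicate 6, the cluster held 18 Adamts1 UMIs, and 10 of 298 cells (3.36%) were positive. In ENZ-NONE replicates 4 and 5, 1 of 16 and 2 of 20 of its cells were positive. The Lpl-led cluster described below had 3 of 32 and 3 of 31 there, and 5 of 32 in DNC-NONE replicate 1. In that library the Fos-led cluster had 5 of 163. The 4 largest microglia-like clusters lay at 10.1 to 26.8 CPM. In DNC-NONE replicate 1, 8 of the 72 Adamts1 UMIs were in the Fos-led cluster and 5, 18, 14 and 17 were in these 4 clusters.

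Plaur was concentrated in other cells. A microglia-like cluster of 459 cells led by Lpl, Ccl4, Cst7 and Csf1 held 178 Plaur UMIs (25.4% of all) at 226 CPM, with 22.0% of cells positive, and Plaur itself was among its 10 leading genes. This cluster was present in every library, at 1.64% to 3.89% of cells. Its Plaur level was 246 and 185 CPM after Dounce (DNC-NONE and DNC-INHIB) and 269 and 230 CPM after digestion (ENZ-NONE and ENZ-INHIB), each on 35 to 53 UMIs. In the 4 largest clusters Plaur lay at 15.8 to 18.3 CPM and in the Fos-led cluster at 27.5 CPM. Monocyte-like cells had the highest level, 296 CPM, with 39.0% positive.

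**Figure D4:**
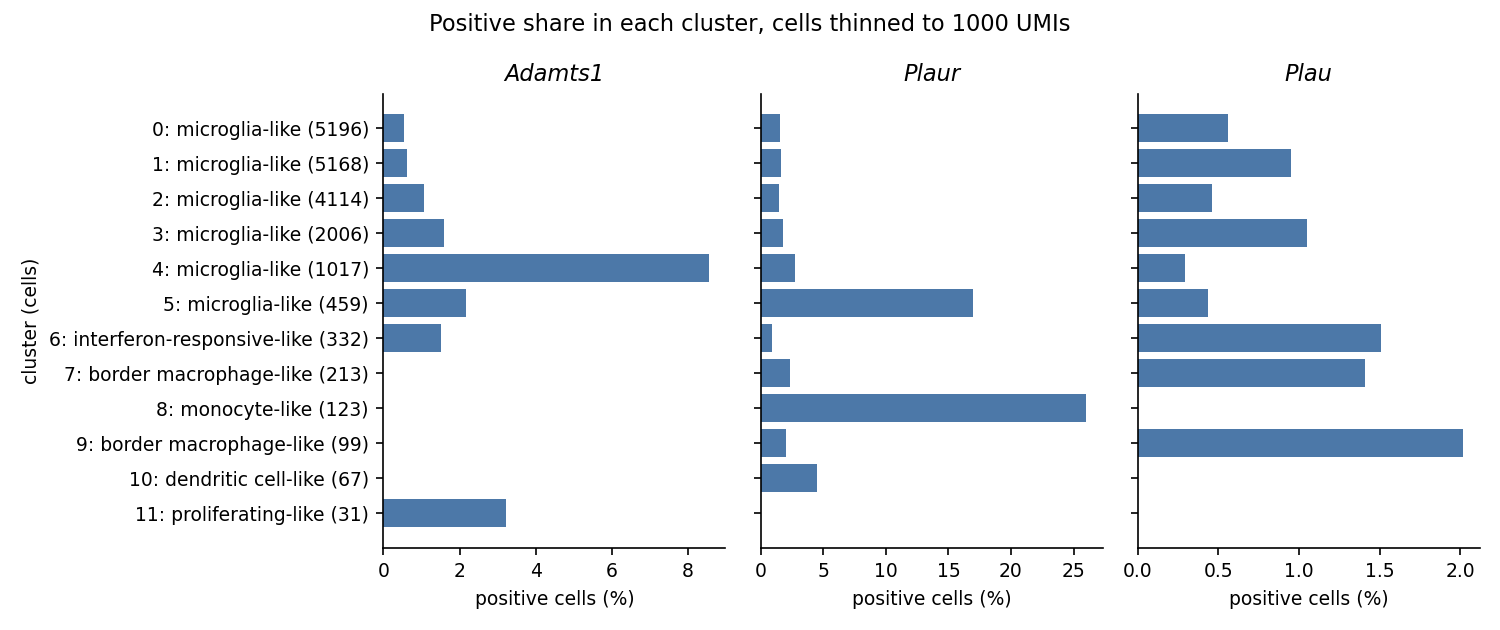
Share of cells positive for each gene (horizontal axes, percent, from 0, a different scale in each panel) in the 12 clusters, after thinning to 1000 UMIs, with the number of cells in brackets. Adamts1 peaks in cluster 4 at 8.55%, Plaur in clusters 8 (26.0%) and 5 (17.0%), and Plau stays at or below 2.02%. ENZ-NONE replicate 6 gave 719 of the cells of cluster 4.

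Plau showed no such peak. Its highest level was 25.1 CPM, in a border macrophage-like cluster of 99 cells with 4 UMIs. The microglia-like clusters ran from 3.20 to 15.2 CPM, with the top value in the Lpl-led cluster that was rich in Plaur. The monocyte-like cluster held 1 UMI. The urokinase gene was thus spread thinly.

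Plaur was higher in macrophage-like cells (border macrophage-like and monocyte-like) than in microglia-like cells of the same libraries, which is given as a description because the classes are groups of these clusters. Its level was 114 CPM (91.7 to 141, exact 95% Poisson interval) in 435 macrophage-like cells and 23.7 CPM (21.9 to 25.7) in microglia-like cells, and it was higher in 11 of 12 libraries. Its log2 difference was 2.34 (SE 0.240) in an edgeR fit with the library as a block.

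Monocyte-like cells held 72 of the 88 macrophage-like Plaur UMIs. Their Plaur level ran from 0 to 589 CPM over the 12 libraries with a median of 287, above the microglia-like level in 10 of 12, on 2 to 33 cells per library. Taken alone, they gave a log2 difference of 3.21 (SE 0.240). Border macrophage-like cells alone gave 0.48 (SE 0.419) and were higher in 4 of 12 libraries. Without DNC-NONE replicate 3, which held 17 of the 72 monocyte-like Plaur UMIs, the difference of the whole class was 2.15 (SE 0.257).

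Part of the monocyte-like Plaur came from cells with neutrophil transcripts. Of the 123 cells, 12 carried 5 to 7 of 7 neutrophil markers, with Camp, Ngp, Ltf, S100a8 and S100a9 in all 12 and the monocyte genes Ccr2, S100a4 and Fn1 in none. They held 20 of the 72 Plaur UMIs at 616 CPM (376 to 951), and ENZ-NONE had 0 of them, ENZ-INHIB 2, DNC-INHIB 3 and DNC-NONE 7. The other 111 cells held 52 UMIs at 247 CPM (184 to 324), and 89 of them had Ccr2. Leaving out the 12 cells, the log2 difference was 2.75 (SE 0.249) for monocyte-like cells and 2.00 (SE 0.257) for the whole class.

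**Figure D5:**
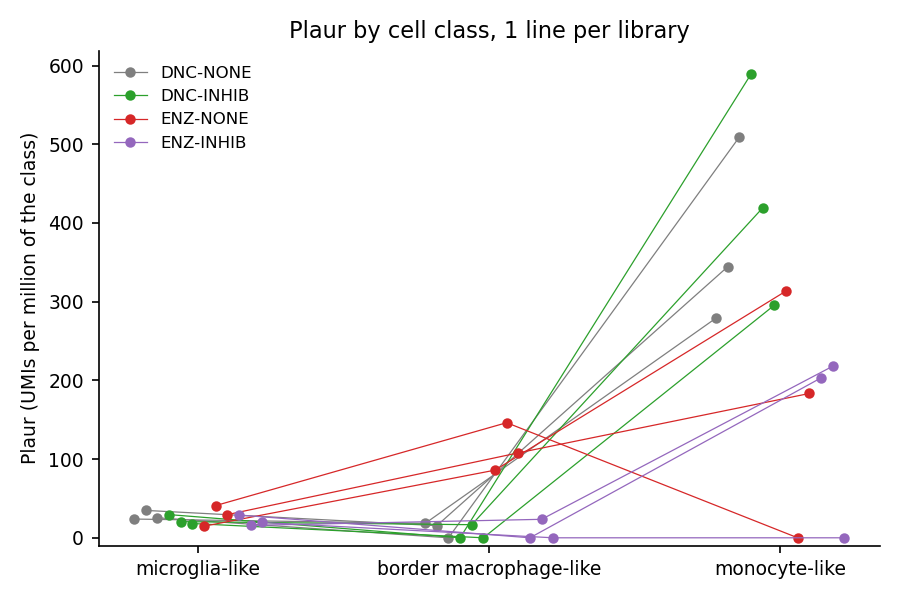
Plaur in CPM of the class (vertical axis) in microglia-like, border macrophage-like and monocyte-like cells, with 1 line per library coloured by preparation. Microglia-like points lie between 14.7 and 40.9, border macrophage-like points are at or below 23.5 except in the 3 ENZ-NONE libraries (86.0 to 146), and monocyte-like points reach 589.

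In border macrophage-like cells, most Plaur UMIs came from ENZ-NONE. ENZ-NONE held 3, 3 and 6 UMIs in 21, 13 and 31 of these cells (86.0, 146 and 108 CPM), and every other library held 0 or 1 UMI (at most 23.5 CPM). Together this was 12 UMIs in ENZ-NONE (108 CPM, exact 95% interval 55.9 to 189) against 2 in DNC-NONE and 1 in each inhibited group. The groups did not overlap, on 65 cells in ENZ-NONE, and the preparations were part of how the gene was chosen, so no test is given. A cluster of 213 border macrophage-like cells was led by H2-Eb1, H2-Aa and Cd74, with the monocyte gene Ccr2 among its 10 leading genes. Its markers do not settle its type, and it held 3 Plaur UMIs in each ENZ-NONE library. The clearer cluster of 99 cells, led by Pf4 and Mrc1, held Plaur in ENZ-NONE replicate 6 only (3 UMIs). Microglia-like cells of the same ENZ-NONE libraries had 14.7, 40.9 and 29.4 CPM, which overlapped with the other 9 (15.8 to 34.8).

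Adamts1 was nearly absent from macrophage-like cells. They held 1 UMI in all, 1.30 CPM (0.033 to 7.24), against 27.5 CPM (25.5 to 29.6) in microglia-like cells. In ENZ-NONE, 92 macrophage-like cells held 0 Adamts1 UMIs of 165608, which allows up to 18.1 CPM by a limit of 3 counts, where 16 UMIs would stand at the microglia-like level of 96.6 CPM. The same cells held more Fos than microglia-like cells, 3647 against 893 CPM. Replicate 6 held 74.0% of the ENZ-NONE Adamts1 UMIs and 50 of the 92 macrophage-like cells, while replicates 4 and 5 held 26 and 16 of these cells. The Adamts1 comparison of the classes in ENZ-NONE thus rests mostly on that library. Monocyte-like cells alone held 0 of 54603 UMIs in ENZ-NONE (up to 54.9 CPM) and border macrophage-like cells 0 of 111005 (up to 27.0 CPM). After thinning, 0% of the ENZ-NONE macrophage-like cells (median 1660.5 UMIs before thinning) and 4.02% of its microglia-like cells (median 1366) were positive. Adamts1 and Plau had too few macrophage-like UMIs to pass the low-count filter of the class fit. Plau stood at 14.3 CPM (7.13 to 25.6, 11 UMIs) in macrophage-like and 7.42 CPM (6.39 to 8.56) in microglia-like cells.

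The genes around the 3 were read from 5 lists of plasminogen activation, ADAMTS proteases, their substrates and inhibitors, matrix metalloproteinases and ADAM proteases, and integrins and other partners of uPAR. Of 88 listed genes, 87 were in the files and 28 passed the low-count filter, while 22 had 0 UMIs. A gene was called at an adjusted p below 0.05 (edgeR quasi-likelihood test, Benjamini-Hochberg) and at least 0.58 on the log2 scale. In each of the 3 comparisons of ENZ-NONE with another group, 1 of the 28 genes was called. Without ENZ-NONE replicate 6, 0 were called against DNC-INHIB. Of all genes tested, 0.465% were called against DNC-NONE, 0.739% against DNC-INHIB and 0.293% against ENZ-INHIB.

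In the other comparisons no pathway gene was called. The percentages of all genes called were 0 for DNC-NONE against DNC-INHIB, 0.202 for ENZ-INHIB against DNC-INHIB and 0.172 for ENZ-INHIB against DNC-NONE (edgeR), while 1, 2 and 5 of the 28 pathway genes had an unadjusted p under 0.05, as did 4.4%, 8.48% and 10.4% of all genes tested. DESeq2 called 0 pathway genes in these 3 comparisons as well. The median log2 fold change of the 28 genes lay between -0.022 and 0.048 in the 6 comparisons, beside -0.0035 to 0.0058 over all genes tested.

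Several genes that bind plasminogen or inhibit proteases were well detected. Serpine2, which encodes the protease inhibitor nexin-1, averaged 1037 CPM over the 12 libraries, and the plasminogen-binding genes Eno1, Plgrkt and S100a10 averaged 367, 80.5 and 22.0 CPM. Lrp1, which encodes an endocytic receptor, averaged 144 CPM. Serpine2 differed by 0.04 on the log2 scale (SE 0.094) between ENZ-NONE and DNC-NONE. The tissue activator Plat had 3 UMIs in all, and plasminogen itself (Plg) and vitronectin (Vtn) had none. Differences in level between genes were not tested.

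Most genes of the Adamts1 family were at or near 0. Beside the 709 UMIs of Adamts1, the other 23 ADAMTS and ADAMTS-like genes in the files held 397 UMIs together, 12 of them had none, and only Adamts10 and Adamts16 passed the filter. Adamts10 averaged 5.29 ± 2.04 CPM in ENZ-NONE and 7.22 ± 1.51 in DNC-NONE, and Adamts16 3.10 ± 0.302 and 3.21 ± 2.26 (SD, n = 3). Adamtsl2, Adamts6 and Adamtsl4 followed at 2.67, 1.07 and 0.612 CPM on average. Of the substrates and inhibitors, the metalloproteinase inhibitor gene Timp2 averaged 503 CPM, followed by Sdc4 (27.5), Nid2 (13.6), Cd44 (4.18) and Thbs1 (3.35).

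Surface sheddases and the uPAR partners did not pass the test in any comparison. Adam15, Adam10, Adam17, Adam9 and Mmp14, which cut membrane or matrix proteins, averaged 186, 171, 85.4, 27.1 and 19.1 CPM. The integrin genes Itgb2, Itgam, Itgb1, Itga6 and Itgav, whose products bind uPAR or matrix, averaged 394, 317, 181, 154 and 58.6 CPM. Itgam encodes CD11b, on which the cells had been sorted. Among the matrix metalloproteinases, the elastase gene Mmp12, named here after its values were seen, differed by 3.05 (SE 0.750) between DNC-NONE and DNC-INHIB without passing (edgeR adjusted p = 0.999).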

How the data were processed

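Libraries were made with a 10x Genomics 3′ droplet kit. The deposited matrices, 1 per animal, hold raw UMI counts by gene and barcode that the authors made with Cell Ranger 3.0.0 (GRCm38, mm10). PCR copies are collapsed in UMIs, and the intervals given cover counting error only. Strand handling is not given in the sources used here.

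Barcodes with under 500 genes, under 1000 UMIs or over 10% mitochondrial UMIs were left out. A marker rule for doublets removed 4 cells (0.0212%), too few to have worked, so most doublets remain. Clusters came from the Leiden method at resolution 1, without the genes of the lists, and names need at least 3 detected markers. Counts were summed per library and tested with edgeR 4.0.16 (quasi-likelihood, robust variance estimation, TMM factors 0.950 to 1.03) on all 12 libraries with 4 groups. Macrophage-like and microglia-like sums were fitted with the library as a block, and the differences are given without a p because the classes come from clusters of the same cells. P-values were adjusted by Benjamini-Hochberg over all genes tested, and genes of low counts were removed with edgeR's filterByExpr. Genes were called at an adjusted p under 0.05 and an absolute log2 fold change of at least 0.58. Replicate pairs differed by a chi-square of 1.55 to 6.06 per degree of freedom, so each counted as 1 sample. The scripts were tested on simulated data. Robust variance estimation was adopted after the counts of calls with and without it had been seen.

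Members and lists were chosen with earlier results of these data known. The text names the 3 genes, every list gene called in a comparison except 1 that is not reported here, the 5 list genes of highest mean level in each list, and the 5 genes most correlated with each of the 3. DESeq2 1.42.0, other scaling, filters, thinning and left-out libraries were alternatives. Age, sort and inhibitors are as the study's methods give them.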

Additional observations from a re-analysis of the deposited data

Results flagged for a closer look

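Barcodes left out by the cell filter, which enter no comparison above, also held Adamts1 after digestion without inhibitors. In ENZ-NONE replicates 4, 5 and 6 these barcodes held 34, 35 and 20 Adamts1 UMIs, a level of 67.5, 60.1 and 87.9 CPM. In DNC-NONE replicates 1, 2 and 3 the level was 32.6, 5.83 and 3.87 CPM. In the 6 inhibited libraries it ran from 0 to 8.25 CPM. The 3 ENZ-NONE values lay above those of all other libraries, which was the condition for this flag. Adamts1 was chosen by its levels in these same libraries, so the values are a description and carry no test. In replicates 4 and 5 they were above the level of the kept cells (37.2 and 48.2 CPM), and in replicate 6 below it (162 CPM).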

How the results depend on the processing

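In all, 232 alternatives were computed for 16 results, and 222 of them moved the value by less than 1 SD between replicates or kept the call. For the Adamts1 level that SD is 69.1 CPM, so its value of 34.5 CPM within batch 1 is counted among these. The cause of the exceptions was not tested. The excess of Adamts1 in ENZ-NONE over the other 9 libraries (77.3 CPM and 3.29 percentage points of positive cells) was 159 CPM and 6.24 points within batch 2, and ran from 37.6 to 99.9 CPM and from 1.90 to 4.12 points when 1 library was left out, lowest without ENZ-NONE replicate 6. With at least 2 Fos UMIs against 0, the difference in Adamts1 share was 8.55 points (5.89 with 1 UMI). The Plaur difference by Fos status (0.418 points) was -0.045 without thinning and 1.45 in all kept cells. The Plau share in ENZ-NONE against the other 9 libraries (-0.046 points) was 0.980 at 2000 UMIs. Pathway genes called for ENZ-NONE against DNC-INHIB ranged from 0 to 1 when 1 library was left out (0 without ENZ-NONE replicate 6). For DNC-NONE against DNC-INHIB, 2 of 65 were called without the low-count filter (Mmp12 and Vcan, 0 with it), beside 19 of all 16399 genes. Vcan held 24 UMIs in all and ran from 0 to 6.00 CPM within DNC-NONE. The log2 difference of Plaur between classes (2.34) was 0.48 for border macrophage-like cells alone and ran from 2.15 to 2.42 when 1 library was left out. Adamts1 and Plau could not be fitted there with the filter, and gave -4.49 and 0.91 without it and -0.74 and 1.05 by DESeq2.

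Whether the replicate numbers shared by ENZ-NONE and DNC-INHIB and by ENZ-INHIB and DNC-NONE pair the samples is not settled. Same-numbered samples correlated at 0.111, -0.014 and 0.156 for ENZ-NONE and DNC-INHIB, against -0.146 to 0.047 for different numbers. For ENZ-INHIB and DNC-NONE they correlated at -0.078 to 0.016, against -0.038 to 0.085. With the replicate number as a block, 1 pathway gene was called for ENZ-NONE against DNC-INHIB and 1 for ENZ-INHIB against DNC-NONE (Anxa2, lower, 0 without the block), and all genes called were 104 and 90 in place of 73 and 17.

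Over all genes, the calls in the 6 comparisons (first ENZ-NONE against DNC-NONE, against DNC-INHIB and against ENZ-INHIB, then DNC-NONE against DNC-INHIB, then ENZ-INHIB against DNC-INHIB and against DNC-NONE) were 46, 73, 29, 0, 20 and 17. They were 103, 142, 60, 19, 67 and 108 without the low-count filter, 61, 79, 38, 0, 15 and 10 without robust variance estimation, 57, 104, 31, 1, 36 and 21 with batch as a covariate and 49, 63, 41, 0, 9 and 19 by DESeq2. Leaving out robust estimation, splitting the macrophage-like class and removing cells with neutrophil markers were chosen after seeing the data. Counts of 9 to 26 Plau UMIs per library limit what can be seen of that gene.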
